A study of Danio rerio with 9 samples.

Results

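Cytosolic ribosomal protein genes encode the proteins that, with ribosomal RNA, build the small and the large subunit of the cytoplasmic ribosome. Members were found by symbol in the per-library gene table: rpl or rps followed by a number, or rplp followed by a number, in any case, with the rps6k kinases and rps19bp1 left out. The rule found 54 of 8969 gene IDs, 22 of the small subunit and 32 of the large subunit, and used no measured value. A names table lists 83 gene IDs that meet the rule, of which 29 were not analysed here.

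The series addresses when transcription starts in the zebrafish embryo, by labelling newly made RNA. All 9 libraries come from wild-type AB embryos, and a protocol text given for all of them describes an injection of 4-thio-UTP (50 mM, 1 nl) into the 1-cell embryo. This uridine analogue is built into new RNA, which can then be biotinylated and held on streptavidin beads. Labelled embryos were sampled at the 128-cell, 256-cell and 512-cell stages with 2 libraries each, which the labels call technical replicates. Embryos called unlabelled, whose sample titles read (-)4SUTP, that is without 4-thio-UTP, gave 1 library at each stage. Their RNA went through the same purification, so unlabelled RNA here is what that purification recovered and not total RNA. The labels do not say if these embryos received a mock injection. Since the labelled replicates are technical, stage p-values measure technical spread only. Whole embryos were sequenced, so fewer cells of a type and less RNA per cell cannot be told apart.

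The cleaving embryo starts with ribosomes and mRNA that the mother loaded into the egg, and its own genome is switched on during the stages sampled here. In vertebrates, mRNAs of ribosomal proteins begin with a terminal oligopyrimidine tract, through which mTOR signalling controls their translation. The small subunit reads the mRNA, and the large subunit joins amino acids and releases the chain through its exit tunnel.

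Values are FPKM, which scale fragments by transcript length and library size, so levels can be set side by side between genes. Without read counts, the depth of a library is unknown. The median over all genes was 2.59, 3.21 and 3.10 FPKM in labelled replicate 1 at the 128-, 256- and 512-cell stages, 1.62, 1.49 and 1.42 FPKM in labelled replicate 2, and 2.52, 1.35 and 0.836 FPKM in unlabelled RNA. Values given in a row of 3 follow these stages throughout. Genes of the mitochondrial genome took 12.8% to 42.7% of the FPKM sum in labelled libraries, against 0.367% to 0.456% in unlabelled ones. A list of 9 early zygotic genes summed to 9.85 to 1990 FPKM in labelled libraries and 1.72 to 4.33 FPKM in unlabelled libraries, and 7 maternal mRNAs summed to 241 to 654 FPKM in labelled libraries and 109 to 320 FPKM in unlabelled libraries. Their part in the results on ribosomal protein genes was not tested.

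Ribosomal protein mRNAs were read in every library, at a median level above that of all genes. Averaged over the 9 libraries, a member's level ran from 1.21 FPKM for RPS15A to 18.0 FPKM for RPS9, with a median of 5.40 FPKM. All 54 passed the filter on low values (at least 1 FPKM in at least 2 libraries). RPS15A, a small-subunit protein, was listed at 0 in labelled replicate 2 at the 128-cell and 256-cell stages, and the other 53 had no value of 0. Among the highest levels after RPS9 were 15.8 FPKM for rps20, 14.4 for rplp2l, 13.3 for RPL12, 11.9 for RPS12, 10.5 for RPS28 and 9.89 for RPL13A.

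The median member had 7.44, 10.2 and 11.8 FPKM in labelled replicate 1, and 2.44, 2.68 and 3.43 FPKM in labelled replicate 2, against 4.52, 2.27 and 1.59 FPKM in unlabelled RNA. The labelled libraries therefore lie on both sides of the unlabelled library at the 128-cell stage and above it at the later stages. Ranked among all genes of the same library, the median member stood at the 78.2nd, 80.9th and 83.5th percentile in labelled replicate 1 and at the 62.8th, 68.5th and 75.2nd in labelled replicate 2. In unlabelled RNA it stood at the 67.3rd, 65.5th and 68.2nd percentile. Within each labelled replicate the rank was higher at each later stage, while the unlabelled ranks lay within 3 points of each other.

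**Figure D1:**
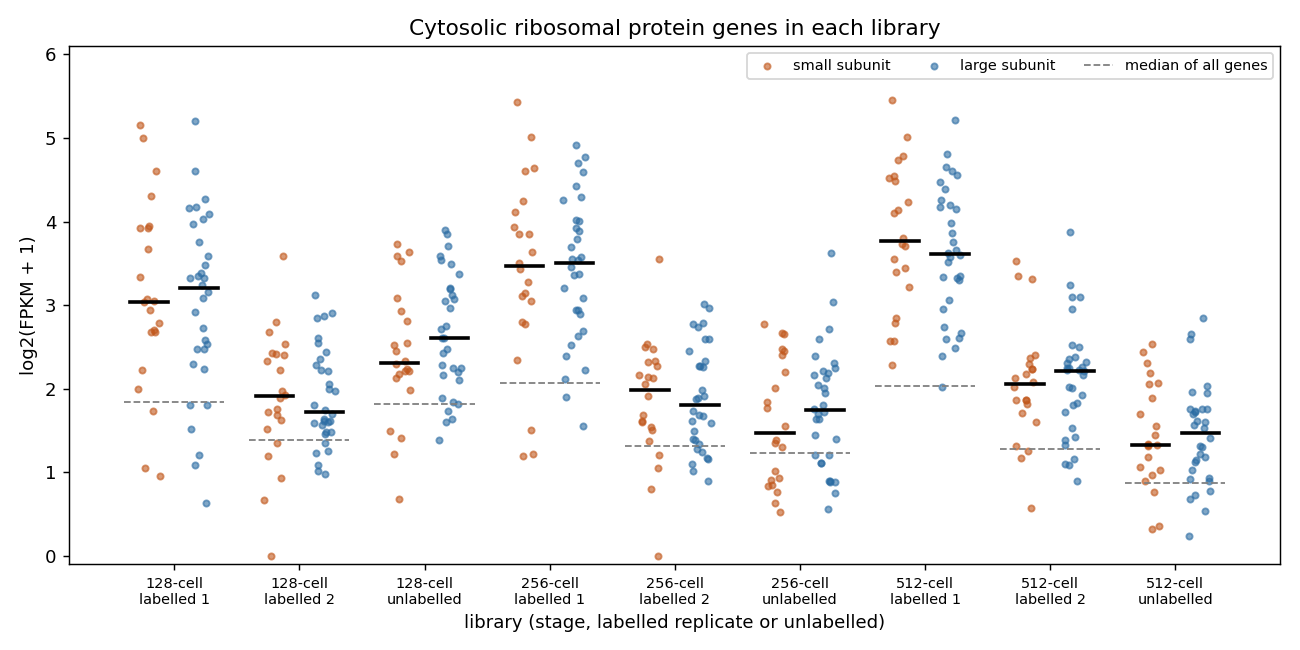
Level of each of the 54 members in each library, as log2(FPKM + 1); points are genes, black bars are medians of the 22 small-subunit and 32 large-subunit members, and dashed lines are the median of all genes. Labelled replicate 1 lies above labelled replicate 2 at every stage, and both subunits lie above the all-gene median in all 9 libraries.

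The gap between technical replicates was wider over these genes than over all tested genes, as a description. In 48 of 54 members, with no such count made over all genes, labelled replicate 1 exceeded replicate 2 at all 3 stages. By stage it was higher in 49, 52 and 54 members, beside 83.0%, 92.3% and 93.4% of all tested genes, so the direction was shared by most genes. The median ratio of FPKM + 1 between them was 2.43, 2.88 and 2.98 over the members, against 1.38, 1.70 and 1.70 over all tested genes. After scaling every library by a median-ratio size factor, the ratio was 1.97, 1.66 and 1.77 over the members and 1.02, 1.03 and 1.03 over all tested genes. Labelled levels of single genes are therefore given by replicate.

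Labelled RNA held more of some ribosomal protein mRNAs than unlabelled RNA when the 3 stages were joined in a test. In limma's test, 14 of 54 members were higher in labelled RNA and 0 were lower, at a Benjamini-Hochberg adjusted p under 0.05 over all genes, and 28 were higher at an unadjusted p under 0.05, beside 1739 of 7697 genes. Over all 7697 genes tested, 11.9% were called higher and 0.974% lower. Calls and p-values test the difference on the deposited scale, before any all-gene median is taken off. Changes of single genes are given below as log2 differences of FPKM + 1 above the all-gene median of the same comparison, which was 0.33 here. On that scale the members had a median of 0.49, and 41 of 54 lay above 0.

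The count rested on few libraries. It was 1 without labelled replicate 1 of the 128-cell stage, 5 without replicate 1 of the 256-cell stage and 8 without replicate 2 of the 512-cell stage, where all genes gave 399 of 7572, 493 of 7480 and 652 of 7565 calls. Leaving out a whole stage with its unlabelled library gave 39 without the 128-cell stage, beside 2880 of 7270 genes. It gave 0 without the 256-cell stage, beside 150 of 7412 genes, and 0 without the 512-cell stage, beside 203 of 7224 genes. With size factors 6 members were called higher (among them RPL12, RPS2, RPS23 and RPS9), beside 5.27% of all genes. The share of higher calls among all calls was then 406 of 616 genes, against 913 of 988 on the deposited scale. The members' median was 0.88 above that of all genes in labelled replicate 1 and 0.06 above it in replicate 2. Members took 0.0216%, 0.0198% and 0.0223% of the FPKM sum in labelled replicate 1 and 0.00448%, 0.00289% and 0.00312% in replicate 2. In unlabelled RNA they took 0.00849%, 0.00578% and 0.00593%, so replicate 2 lay below unlabelled RNA at every stage by this measure.

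**Figure D2:**
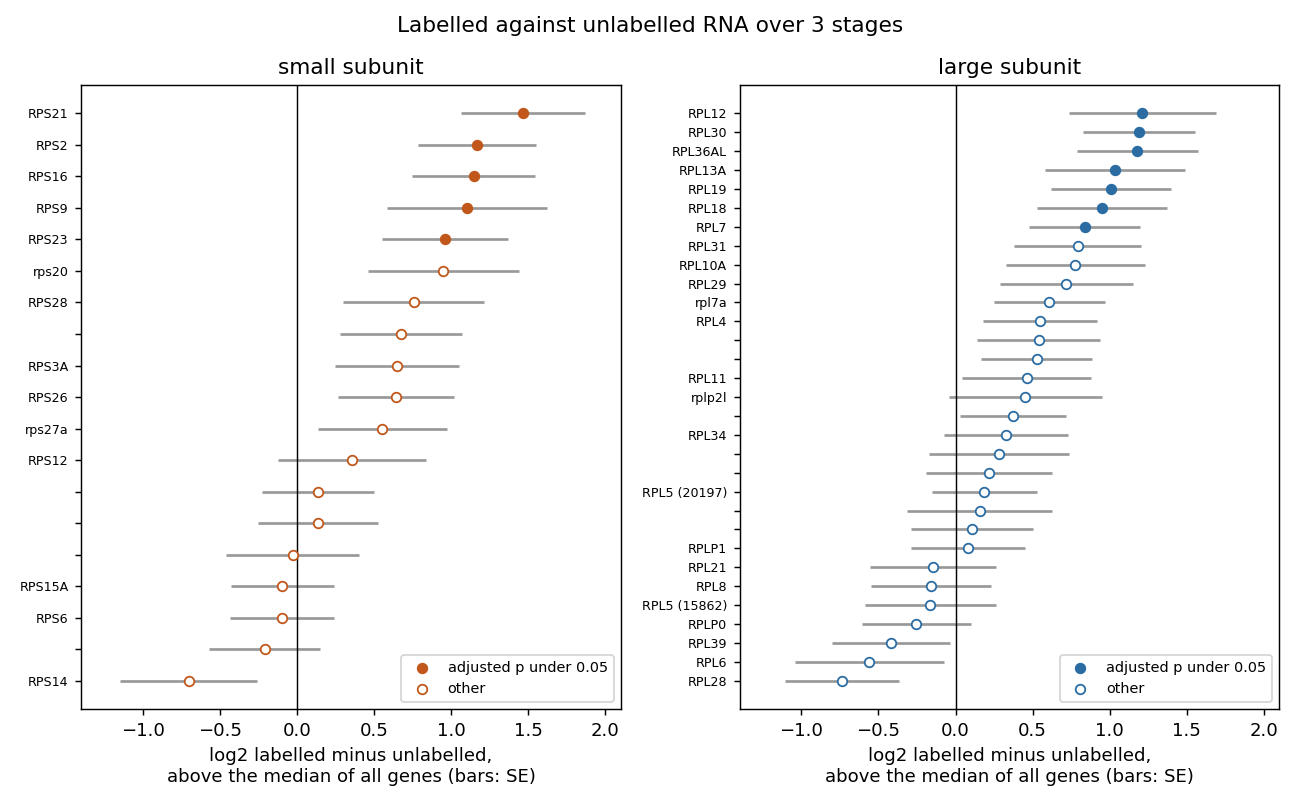
Log2 difference between labelled and unlabelled RNA over the 3 stages for 50 of the members, above the median of all tested genes (vertical line at 0); bars are standard errors, and filled points passed the adjusted threshold. The bars leave out the gap between labelled replicates. Members described in the text are named. The filled points include RPS21 at 1.46 and RPL12 at 1.21, and RPL28 and RPS14 lie lowest at -0.74 and -0.70.

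Of the small subunit, 7 of 22 members were higher in labelled RNA, with a median difference of 0.64 over the 22. RPS21 had 14.1, 14.3 and 22.0 FPKM in labelled replicate 1 and 2.22, 4.55 and 4.27 FPKM in replicate 2, against 4.46, 0.695 and 0.857 FPKM in unlabelled RNA. At the 128-cell stage the unlabelled library lay between the labelled ones, and at the later stages below both. The difference was 1.46 ± 0.40 (SE; limma adjusted p = 0.00022). RPS2, which lines the entry of the mRNA channel, had 11.8, 13.5 and 9.53 FPKM in labelled replicate 1 and 2.92, 2.77 and 2.64 FPKM in replicate 2, against 2.96, 0.874 and 0.962 FPKM in unlabelled RNA. Its difference was 1.17 ± 0.38 (SE; limma adjusted p = 0.0018), and replicate 2 of the 128-cell stage was no higher than the unlabelled library.

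RPS16, whose tail reaches the tRNA in the peptidyl site, had 14.4, 18.0 and 16.7 FPKM in labelled replicate 1 and 4.02, 1.58 and 2.27 FPKM in replicate 2, against 3.51, 0.781 and 1.74 FPKM in unlabelled RNA. It was above the unlabelled library of the stage in all 6 labelled libraries. Its log2 difference was 1.15 ± 0.40 (SE), with a limma adjusted p of 0.0037.

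RPS23, a protein of the decoding centre, had 14.2, 16.2 and 17.8 FPKM in labelled replicate 1 and 2.30, 2.03 and 3.73 FPKM in replicate 2, against 3.36, 1.61 and 1.94 FPKM in unlabelled RNA. RPS9, the most abundant member, had 34.6, 42.1 and 31.1 FPKM in labelled replicate 1 and 11.0, 10.7 and 10.5 FPKM in replicate 2, against 12.3, 5.33 and 4.44 FPKM in unlabelled RNA. For both, the unlabelled 128-cell library lay between the labelled ones. The differences were 0.96 ± 0.41 for RPS23 and 1.10 ± 0.52 for RPS9 (SE), and limma's adjusted p-values were 0.0177 and 0.0464.

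Among small-subunit members that did not pass, rps20 had the largest difference, 0.95 ± 0.49 (SE; limma adjusted p = 0.0656). Its levels were 31.0, 31.2 and 43.0 FPKM in labelled replicate 1 and 5.38, 4.00 and 8.97 FPKM in replicate 2, against 11.0, 4.31 and 3.21 FPKM in unlabelled RNA. RPS14, which sits on the platform of the subunit, lay at the other end with -0.70 ± 0.44 (SE; limma adjusted p = 0.667). It had 7.38, 5.97 and 4.94 FPKM in labelled replicate 1 and 4.27, 3.82 and 3.90 FPKM in replicate 2, against 10.5, 5.84 and 4.78 FPKM in unlabelled RNA. The unlabelled 128-cell value of RPS14 was above all its labelled values, and its percentile was 63.8 to 78.4 in labelled RNA and 86.2 to 89.1 in unlabelled RNA.

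RPS6, the ribosomal substrate of S6 kinase, stood at -0.10 ± 0.34 (SE; limma adjusted p = 0.748), with 0.492 to 3.89 FPKM in labelled libraries and 0.701 to 1.46 FPKM in unlabelled ones. The gene rps27a, which encodes ubiquitin fused to a small-subunit protein, stood at 0.55 ± 0.42 (SE; limma adjusted p = 0.161). RPS3A did not pass either (0.65 ± 0.40, SE; limma adjusted p = 0.0892), although both of its labelled libraries exceeded the unlabelled library at every stage. That held for 4 members in all (RPS16 and RPS3A among them), each of the small subunit, and for 14.6% of all genes tested. A count of 4 among 54 is below that background.

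Of the large subunit, 7 of 32 members were higher in labelled RNA, with a median difference of 0.41 over the 32. RPL12, at the base of the stalk that recruits translation factors, had 23.3, 26.4 and 36.0 FPKM in labelled replicate 1 and 6.17, 5.92 and 8.49 FPKM in replicate 2, against 7.68, 3.13 and 2.87 FPKM in unlabelled RNA. The unlabelled 128-cell library lay between the labelled ones, and the later unlabelled libraries below both. RPL12's difference was 1.21 ± 0.48 (SE; limma adjusted p = 0.0136).

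The stalk proteins themselves did not pass. RPLP0, which anchors the stalk, had 1.86, 3.66 and 4.61 FPKM in labelled replicate 1 and 1.56, 1.02 and 1.24 FPKM in replicate 2, against 2.52, 2.30 and 1.19 FPKM in unlabelled RNA. The rplp2l gene, named as a P2-like stalk protein, had 35.8, 29.2 and 23.4 FPKM in labelled replicate 1 and 7.67, 2.05 and 7.59 FPKM in replicate 2, against 13.9, 4.25 and 5.30 FPKM in unlabelled RNA. Their differences were -0.25 ± 0.35 for RPLP0, 0.08 ± 0.37 for RPLP1 and 0.45 ± 0.49 for rplp2l (SE), with limma adjusted p-values of 0.934, 0.546 and 0.338.

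RPL30 had 4.80, 8.22 and 19.9 FPKM in labelled replicate 1 and 1.38, 1.65 and 3.66 FPKM in replicate 2, against 2.04, 1.16 and 0.180 FPKM in unlabelled RNA. RPL36AL had 16.1, 14.1 and 12.5 FPKM in labelled replicate 1 and 2.35, 2.18 and 3.62 FPKM in replicate 2, against 3.74, 1.63 and 0.454 FPKM in unlabelled RNA. In both genes the unlabelled level was lowest at the 512-cell stage, below all 6 labelled values. The differences were 1.19 ± 0.36 for RPL30 and 1.18 ± 0.39 for RPL36AL (SE), with limma adjusted p-values of 0.00062 and 0.0023.

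RPL19, which takes part in bridges between the subunits, had 8.49, 9.99 and 17.1 FPKM in labelled replicate 1 and 2.01, 2.77 and 3.75 FPKM in replicate 2, against 4.40, 1.31 and 0.605 FPKM in unlabelled RNA. RPL13A, known in human cells also as part of a complex that silences inflammatory mRNAs, had 9.43, 11.9 and 27.0 FPKM in labelled replicate 1 and 6.51, 5.82 and 13.6 FPKM in replicate 2, against 10.6, 2.87 and 1.22 FPKM in unlabelled RNA. At the 128-cell stage RPL13A was lower in both labelled libraries than in the unlabelled one, and at the later stages higher in both. RPL7 and RPL18 completed the set, and over these 4 genes the differences were 0.84 to 1.03 with limma adjusted p-values of 0.0082 to 0.0266.

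RPL5 and RPL11 bind the 5S ribosomal RNA and, when free, the p53 regulator MDM2. RPL5 is listed under 2 gene IDs. The more abundant, ENSDARG00000015862, had 6.57, 9.35 and 5.36 FPKM in labelled replicate 1 and 3.65, 3.81 and 4.20 FPKM in replicate 2, against 9.39, 3.96 and 2.33 FPKM in unlabelled RNA, a difference of -0.16 ± 0.43 (SE; limma adjusted p = 0.874). The other, ENSDARG00000020197, had 1.12 to 3.04 FPKM in labelled libraries and 0.472 to 2.12 FPKM in unlabelled ones, a difference of 0.19 ± 0.34 (SE; limma adjusted p = 0.364). How reads shared by the copies were counted is not stated, so each copy's level is uncertain. RPL11 stood at 0.46 ± 0.42 (SE; limma adjusted p = 0.228).

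Among large-subunit members that did not pass, RPL31 and RPL10A had the largest differences, 0.79 ± 0.41 and 0.78 ± 0.45 (SE), with limma adjusted p-values of 0.0522 and 0.0896. RPL31 lies at the rim of the exit tunnel. The lowest were RPL28 at -0.74 ± 0.37 and RPL6 at -0.56 ± 0.48 (SE), with limma adjusted p-values of 0.546 and 0.827. RPL28 had 1.32, 1.94 and 5.69 FPKM in labelled replicate 1 and 2.50, 1.26 and 1.69 FPKM in replicate 2, against 8.23, 2.39 and 1.33 FPKM in unlabelled RNA. RPL6 had 18.2, 13.8 and 11.1 FPKM in labelled replicate 1 and 4.13, 4.02 and 3.94 FPKM in replicate 2, against 13.4, 11.4 and 5.06 FPKM in unlabelled RNA. RPL28 was lower in both labelled libraries than in the unlabelled one at 128 cells, and RPL6 was lower in replicate 2 at every stage.

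Each labelled library was also set against the unlabelled library of its stage. The median ratio of FPKM + 1 over the members was 1.66, 3.08 and 4.69 for labelled replicate 1, beside 1.02, 1.75 and 2.17 over all tested genes. For labelled replicate 2 it was 0.621, 1.16 and 1.47, beside 0.743, 1.04 and 1.28 over all tested genes. Replicate 1 exceeded the unlabelled library in 39, 52 and 54 of 54 members, beside 52.3%, 89.4% and 93.8% of all tested genes. Replicate 2 exceeded it in 6, 35 and 44 members, beside 19.4%, 54.7% and 73.9% of all tested genes. With size factors the member counts were 39, 45 and 49 for replicate 1, beside 52.1%, 53.1% and 52.9% of all tested genes. For replicate 2 they were 19, 34 and 32, beside 50.3%, 51.9% and 52.1%. Relative to the all-gene median of each library pair, 11 members lay above it in all 6 pairs and 1 in none. That count was not made over all genes, and both pairs of a stage share its unlabelled library, so no result is read from it. The members' median lay on opposite sides of the all-gene median in the 2 replicates at the 128-cell stage, and above it in both at the later stages.

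**Figure D3:**
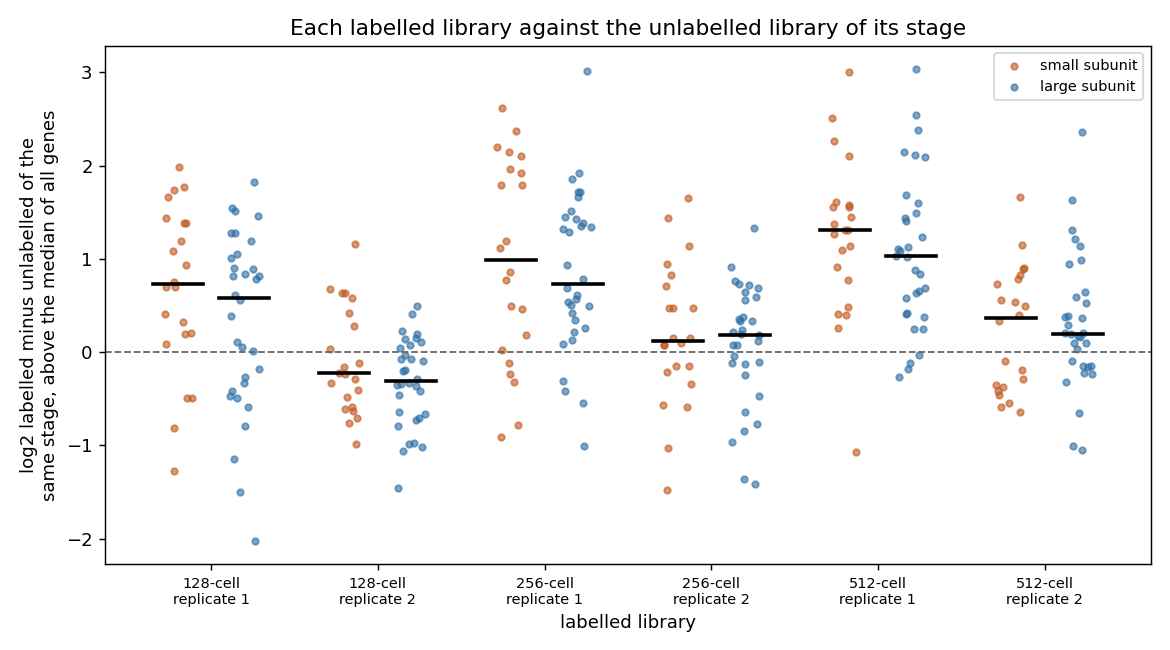
Log2 difference between each labelled library and the unlabelled library of its stage for each member, above the median of all tested genes (dashed line at 0); black bars are medians by subunit. Replicate 1 has its members' median at 0.70, 0.82 and 1.11, and replicate 2 at -0.26, 0.15 and 0.20, in stage order.

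Tested stage by stage with limma, labelled against unlabelled RNA gave 0 of 54 members at the 128-cell stage, 0 at the 256-cell stage and 0 at the 512-cell stage. All genes gave 0.078%, 1.13% and 3.72% called higher, and 0.221% called lower at the 512-cell stage. At an unadjusted p under 0.05, 0 members were higher and 1 lower (RPL28) at 128 cells, 2 were higher at 256 cells and 6 at 512 cells. Over all genes 134 were lower at 128 cells, and 72, 301 and 1030 of 7697 were higher at the 3 stages. The members' medians were 0.27, 0.47 and 0.67 above those of all genes, which were -0.18, 0.43 and 0.73. These tests take the spread of the lone unlabelled library to equal that between technical replicates.

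At the 128-cell stage RPS16 and RPS2 were among the highest, at 1.15 and 1.02, and RPL28, RPL29 and RPL39 were lowest, at -1.51, -1.32 and -1.10. At the 256-cell stage RPL29 and RPS21 led with 2.18 and 2.02, and RPL6 and RPL39 were lowest with -0.95 and -0.91. At the 512-cell stage RPL13A stood at 2.46 ± 0.83 (SE; limma adjusted p = 0.0731), RPL30 at 2.34 ± 1.04 (SE; limma adjusted p = 0.175) and RPS26, at the exit of the mRNA channel, at 1.96 ± 1.27 (SE; limma adjusted p = 0.384). RPS14, RPL8 and RPL6 were lowest there, at -0.83, -0.63 and -0.37. The count at 512 cells was 4 with size factors (RPL13A, RPL30 and rpl7a among them), where 655 of 926 calls over all genes were higher, against 286 of 303 on the deposited scale. It was 2 with a pseudocount of 0.1, and 1 without either 128-cell labelled library. It was 5 without replicate 1 and 6 without replicate 2 of the 256-cell stage, and 7 without replicate 2 of the 512-cell stage. All genes gave 462 to 665 calls under these 6 settings other than size factors. At 256 cells it was 3 without replicate 2 of that stage, beside 251 of 7690 genes.

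Within labelled RNA, limma called 0 of 54 members in the 512-cell against 128-cell comparison, where 4.96% of all genes were called higher. This fit left out the replicate number. Counts with that number in the fit are larger and are given with the dependence on processing. At 512 cells 3 members were higher at an unadjusted p under 0.05, beside 599 of 7438 genes. Relative to all genes, whose median was -0.11, the members ran from -0.62 to 2.52 with a median of 0.48, and 42 of 54 lay above 0. The median was 0.49 for the small and 0.48 for the large subunit. It was -0.0018 without replicate 2 and 0.73 without replicate 1 of the 128-cell stage, and 0.05 without replicate 1 and 0.80 without replicate 2 of the 512-cell stage. Compared within a replicate number it was 0.46 in replicate 1 and 0.27 in replicate 2.

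RPL39, a small protein of the exit tunnel wall, had the largest stage difference. It had 0.558, 5.20 and 14.8 FPKM in labelled replicate 1 and 1.02, 0.856 and 4.65 FPKM in replicate 2, with 3.30, 3.74 and 2.39 FPKM in unlabelled RNA. Both labelled 512-cell values lay above, and both labelled 128-cell values below, all 3 unlabelled values. The 512-cell minus 128-cell difference was 2.52 ± 0.69 (SE), with a limma adjusted p of 0.0846. That is 5.72-fold in FPKM + 1 above the all-gene median, and not the fold of the FPKM values. The labelled 128-cell values lie near the added 1, which limits this fold.

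RPL29 had 4.56, 25.1 and 21.2 FPKM in labelled replicate 1 and 2.26, 3.82 and 7.58 FPKM in replicate 2, with 11.0, 0.842 and 2.39 FPKM in unlabelled RNA. The rpl7a gene had 2.50, 6.45 and 9.09 FPKM in labelled replicate 1 and 0.967, 2.32 and 3.67 FPKM in replicate 2, with 3.58, 0.687 and 0.660 FPKM in unlabelled RNA. RPLP1, of the stalk, had 2.50, 3.35 and 8.86 FPKM in labelled replicate 1 and 1.80, 1.37 and 3.78 FPKM in replicate 2, with 3.76, 1.15 and 1.88 FPKM in unlabelled RNA. In each of these genes the labelled 512-cell libraries lay above the labelled 128-cell ones. On the deposited scale the unlabelled 512-cell library lay below the unlabelled 128-cell one, a direction that nearly all genes shared. Only 1 of 54 members and 6.17% of all tested genes were higher at 512 cells in unlabelled RNA. Ranked within the unlabelled libraries, RPLP1 stood higher at 512 cells (percentile 72.3) than at 128 cells (62.0), while RPL29 and rpl7a stood lower. In all, 7 members had both labelled 512-cell values above both labelled 128-cell values (RPL13A, RPL29, RPL39, RPLP1, RPS15A and rpl7a among them), or 7 of 54, beside 12.4% of all genes tested, a share close to that background.

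At the other end RPL34, RPL8 and RPL31 stood at -0.62, -0.53 and -0.26. RPL8, a protein near the catalytic centre, had 9.19, 6.68 and 5.11 FPKM in labelled replicate 1 and 2.13, 2.01 and 1.15 FPKM in replicate 2, with 5.55, 2.13 and 2.40 FPKM in unlabelled RNA. On the deposited scale its level was lower at 512 cells than at 128 cells in each of the 3 kinds of library. Ranked within libraries, RPL8 went from percentile 82.5 to 64.7 in labelled replicate 1 and from 58.3 to 42.6 in replicate 2. In unlabelled RNA its percentile was higher at 512 cells, 77.8 against 72.8. With size factors 5 members passed for 512-cell against 128-cell RNA (RPL13A, RPL39, RPLP1 and rpl7a among them), beside 517 of 7438 genes. RPL39 and RPS15A passed when either 256-cell library, or replicate 2 of the 512-cell stage, was left out (2 members each time), when all genes gave 383 to 519 calls.

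**Figure D4:**
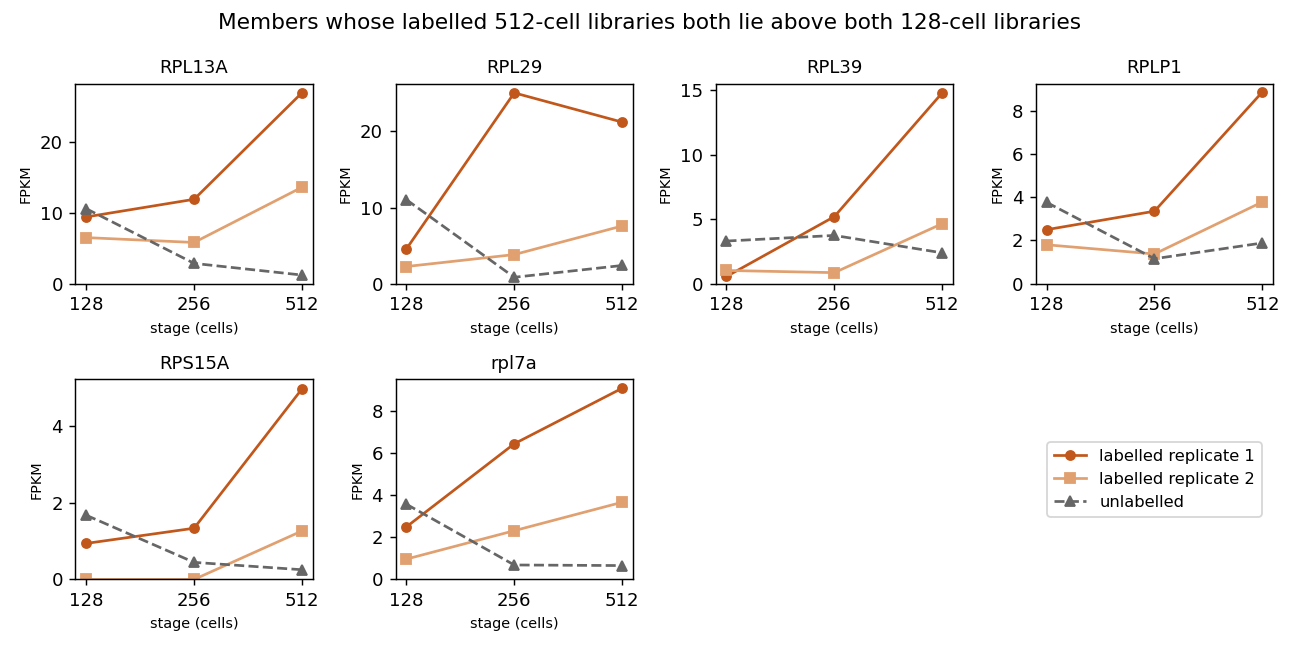
FPKM by stage in labelled replicate 1, labelled replicate 2 and unlabelled RNA for 6 members whose labelled 512-cell values both exceed both labelled 128-cell values. RPL39 reaches 14.8 and 4.65 FPKM in the labelled 512-cell libraries, against 0.558 and 1.02 FPKM at 128 cells.

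The shorter steps gave no calls in the main fit, which left out the replicate number. Limma called 0 of 54 members for 512-cell against 256-cell RNA and 0 for 256-cell against 128-cell RNA, as it called 0% of all genes higher in either, and at an unadjusted p under 0.05 it found 1 member and 0 members higher, beside 326 and 246 of 7438 genes. The members' medians were 0.28 and 0.04. In the later step RPL39, RPS15A and RPL13A stood highest at 1.57, 1.36 and 1.20, and RPL34, RPL21 and RPL18 lowest at -0.61, -0.44 and -0.35. In the earlier step RPL29, RPL21 and RPL39 stood highest at 1.37, 1.00 and 0.90, and rplp2l, RPL31 and RPL4 lowest at -0.93, -0.66 and -0.46. The later step gave 1 member with size factors (RPLP1) and 1 (RPS15A) without replicate 1 of the earlier or replicate 2 of the later stage, when all genes gave 208, 84 and 135 calls. Both medians changed sign when a library was left out, with ranges of -0.11 to 0.74 and -0.32 to 0.54.

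Unlabelled levels were lower at the later stages on the deposited scale, over the members and over all genes. In 53 of 54 members the unlabelled level was lower at 512 cells than at 128 cells. In 35 it was lower at each later stage, a count that was not made over all genes. Nearly all genes went the same way: 1 of 54 members and 6.17% of all tested genes were higher at 512 than at 128 cells. By step, 7.07% of all tested genes were higher at 256 than at 128 cells, and 14.9% at 512 than at 256 cells. With size factors 32 of 54 members and 53.3% of all tested genes were higher at 512 than at 128 cells. The median ratio of FPKM + 1, 512-cell over 128-cell, was 0.458 over the members and 0.516 over all tested genes. With size factors the ratio was 1.15 over the members and 1.04 over all genes, so this direction turns with the scaling. Labelled replicate 1 gave 1.40 over the members and 1.02 over all genes, with 41 of 54 members and 52.7% of all genes higher at 512 cells. Labelled replicate 2 gave 1.04 and 0.862, with 28 of 54 members and 29.9% of all genes higher.

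The difference between these stage changes was tested directly, and its all-gene median was 0.94. Limma called 0 of 54 members, beside 0% of all genes higher, and 6 members were higher at an unadjusted p under 0.05, beside 563 of 7697 genes. RPL13A led with 2.63 ± 1.18 (SE; limma adjusted p = 0.412), followed by RPL29 at 2.58 ± 1.50 and rpl7a at 1.91 ± 1.07 (SE), with limma adjusted p-values of 0.633 and 0.528. RPL34 and RPL8 were among the lowest, at -0.66 and -0.63. The members' median was 0.42, with 0.27 for the small and 0.60 for the large subunit. It was -0.06 without labelled 512-cell replicate 1, 1.00 without labelled 512-cell replicate 2, 0.06 without labelled 128-cell replicate 2, 0.77 without labelled 128-cell replicate 1, and 0.23 with size factors. With size factors 1 member passed (RPL13A), and 1 passed without labelled 512-cell replicate 2 (RPS15A), when all genes gave 137 and 226 calls.

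Small-subunit genes made up a larger part of the ribosomal protein signal in most labelled libraries. The summed FPKM of the 22 small-subunit members over that of the 32 large-subunit members was 0.777, 0.751 and 0.813 in labelled replicate 1 and 0.732, 0.689 and 0.661 in replicate 2, against 0.585, 0.596 and 0.698 in unlabelled RNA. Over the stages, labelled libraries averaged 0.737 ± 0.056 (SD, n = 6, technical replicates counted singly) and unlabelled libraries 0.626 ± 0.062 (SD, n = 3). Both labelled libraries exceeded the unlabelled library at 128 and 256 cells, but at 512 cells replicate 2 lay below it. The ratio of medians was 0.883, 0.978 and 1.13 in labelled replicate 1 and 1.20, 1.19 and 0.865 in replicate 2, against 0.777, 0.759 and 0.855 in unlabelled RNA. No test was made, since genes are not replicates.

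**Figure D5:**
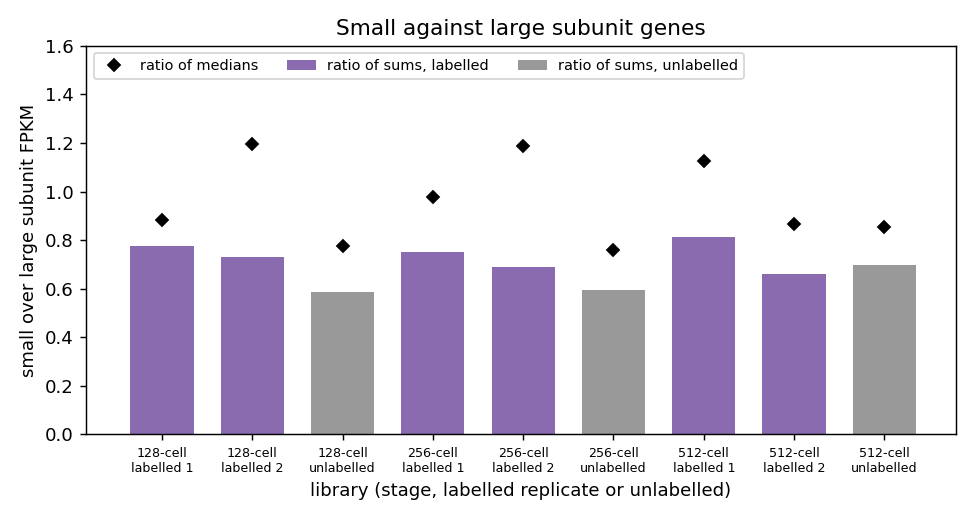
Summed FPKM of the 22 small-subunit members over that of the 32 large-subunit members in each library (bars), with the ratio of the subunit medians (diamonds). Bars run from 0.661 to 0.813 in labelled libraries and from 0.585 to 0.698 in unlabelled ones.

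Other genes of the translation machinery were read in the same tests. Of 40 ribosome assembly genes, 12 were higher and 0 lower in labelled RNA over the 3 stages, with a median of 0.48. NHP2, a protein of the particles that form pseudouridine in ribosomal RNA, led them at 2.46 ± 0.45 (SE), with a limma adjusted p of 4.0e-08. Of 47 genes with initiation factor symbols 7 were higher and 0 lower (median 0.26), with EIF1B at 2.18 ± 0.61 (SE; limma adjusted p = 0.00084). Of 7 genes with elongation factor symbols 0 passed, with 3 higher at an unadjusted p under 0.05 and a limma adjusted p of 0.0535 for EEF1G. Both lists were made by the start of the symbol, so they also hold genes that are not factors themselves, such as EIF2AK3, EIF4EBP2 and EEF1AKMT4. EIF6 stands in both the assembly and the initiation list. Mitochondrial ribosomal proteins, which serve a separate ribosome, had 1 of 19 higher (MRPL11) and a median of 0.05. Of 5 relatives outside the symbol rule, 1 was higher, faub, whose product is a ubiquitin-like protein fused to a small-subunit protein (0.68 ± 0.34, SE; limma adjusted p = 0.0297).

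The shares called in these lists were 30.0% for assembly, 14.9% for initiation, 5.26% for mitochondrial ribosomal proteins and 25.9% for the 54 members, beside 11.9% of all genes. For scale, all 9 early zygotic genes and all 13 genes of the mitochondrial genome were higher in labelled RNA, with medians of 3.43 and 6.01. The lists were chosen with earlier results of these data known, so their counts serve as scale and not as a test. In the labelled 512-cell against 128-cell comparison 9 of 9 zygotic genes were higher and 0 of the assembly, initiation, elongation and mitochondrial ribosomal genes were. In that comparison 1 assembly gene, 0 initiation genes, 2 elongation genes and 0 mitochondrial ribosomal genes were higher at an unadjusted p under 0.05.

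The authors' deposited table with 1 pooled FPKM value per stage over labelled libraries lists 58 members, 52 of them also in the per-library table. All 58 were higher at 512 cells than at 128 cells in the authors' deposited table, as were 97.2% of all its genes above 0 at 128 cells. The median ratio in the authors' deposited table was 3.60 over the members and 2.04 over all genes. RPL30 had 1.64, 5.13 and 17.1 FPKM in the authors' deposited table. RPL6 had the smallest ratio there, with 6.64, 9.37 and 10.6 FPKM in the authors' deposited table. With 1 value per stage no error can be given for them, and how they were scaled between stages is not stated.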

How the data were processed

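The deposited values are FPKM per gene and library. The authors used Cufflinks 2.0.2, TopHat 1.3.3 and CASAVA 1.7 with the zebrafish build Zv9, per the submitters' processing notes, and libraries had 15 PCR cycles, per the labels' protocols. Annotation version, strand handling, multi-mapped reads and scaling between libraries are not given in the sources used here. Genes that reached 1 FPKM in 2 or more of a fit's libraries were tested on log2(FPKM + 1), with limma 3.58.1 in R 4.3.3, with a mean-variance trend, two-sided, and Benjamini-Hochberg adjustment over all tested genes (threshold 0.05). Labelled against unlabelled RNA over the 3 stages used stage means of the technical replicates, with stage as a block. Stage comparisons used the 6 labelled libraries, and the others all 9. The fitting code was run on simulated data with independent noise and large planted changes. That run does not measure error rates or power in these data, where same-numbered libraries deviated together.

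Gene names came from a separate names table, which gave a symbol to 7028 of the 8969 gene IDs. The rule could not find IDs without a symbol. The member rule was read as a match at the start of a symbol, which adds rplp2l, RPS4Y2 and rps27.1 to 51 whole matches. Named members are the 8 with the highest mean, every member past the threshold, the 3 highest and 3 lowest others in each comparison, and copies of a protein, and some chosen for their roles after their values were seen. Members, lists and tests were chosen with earlier results of these data known. Alternatives were size factors, a pseudocount of 0.1, no filter, a filter at 5 FPKM, a replicate block among labelled libraries and leaving out labelled libraries. Whole-symbol matching and leaving out a stage with its unlabelled library were chosen after seeing the data. Size factors are median ratios to the geometric mean library. Some members are not reported by name here.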

Additional observations from a re-analysis of the deposited data

How the results depend on the processing

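Depth is unknown, so no counting interval limits these values, and with 1 unlabelled library per stage no stage has a replicated control. Members past the threshold numbered 0 to 2 for 512-cell against 128-cell labelled RNA when a library was left out, 0 to 1 for 512-cell against 256-cell, 0 to 3 for labelled against unlabelled RNA at 256 cells, 0 to 7 at 512 cells, 0 to 1 for the difference of stage changes and 1 to 21 over the 3 stages, or 0 to 39 where a stage was left out with its unlabelled library. With size factors they numbered 5 and 1 for the 512-cell stage against the 128-cell and the 256-cell stage, 4 for labelled against unlabelled RNA at 512 cells, 1 for the difference of stage changes and 6 over the 3 stages. A pseudocount of 0.1 gave 2 at 512 cells. The cause of these shifts was not tested. Without a filter 10 of the 14 members over the 3 stages passed, beside 868 of 8969 genes called. A filter at 5 FPKM gave 14 of 45 members tested, of which 12 were shared, beside 600 of 3345 genes. The 21 members found without labelled replicate 2 of the 128-cell stage stood beside 937 of 7679 genes. Each of the 14 kept its direction, and its call held under 4 to 11 of 13 alternatives. All 14 have whole-symbol matches. The subunit ratio had a log2 labelled over unlabelled value of 0.24 for sums and 0.37 for medians. It was 0.18 without the highest member of each subunit and 0.31 with whole symbols. All lay within 0.14 of the value for sums, which is the SD of the log2 ratio over the 3 unlabelled libraries. That SD runs across stages and is not an error of the labelled over unlabelled value.

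Labelled libraries share replicate numbers 1 and 2, and the labels do not say what the numbers stand for. Deviations from the stage mean correlated across 7438 genes between same-numbered libraries, with r of 0.739, 0.762 and 0.660, so these libraries deviated together. With a replicate block 10 members were higher at 512 cells than at 128 cells, beside 726 of 7438 genes higher (825 called in either direction). At 512 against 256 cells 4 members were higher, beside 361 genes higher (382 called). At 256 against 128 cells 1 member was higher, beside 234 genes higher (242 called). With the replicate block and size factors together 14, 6 and 2 members were higher in the same order, beside 845, 495 and 234 genes higher (948, 510 and 241 called). The block was not run for comparisons with unlabelled RNA, since those libraries carry no replicate number.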

Other observations

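The authors' deposited table with pooled stage values lists 6 members outside the per-library table analysed here, RPL15, RPL17, RPL23A, RPS19 and RPS24 among them. RPS19, the gene most often mutated in human Diamond-Blackfan anaemia, had 1.24, 1.95 and 2.41 FPKM at 128, 256 and 512 cells in the authors' deposited table. These genes have no value in unlabelled RNA here and enter no comparison.

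Of the 7 genes left out by the rule, 1 was higher in labelled RNA over the 3 stages, rps19bp1 at 0.63 ± 0.34 (SE; limma adjusted p = 0.0365); the others did not pass.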
